A study of Homo sapiens with 12 samples.

Results

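The genes described here are 38 genes of protein folding and export in the endoplasmic reticulum among the 56269 symbols in the count table. They were listed by name, with earlier results of these data known. They fall into 11 chaperones and co-chaperones, 5 disulfide isomerases, 3 transcription factors, 4 genes of degradation, 9 genes of translocation and 6 genes of the COPII coat. All 38 members passed the filter on low counts, as 16115 genes did in all.

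Secreted and membrane proteins enter the endoplasmic reticulum through the SEC61 channel, fold there with the help of chaperones and disulfide isomerases, and leave it in vesicles coated by the COPII proteins, while misfolded proteins are returned to the cytosol and degraded. When unfolded protein accumulates, the membrane sensors IRE1, PERK and ATF6 start the unfolded protein response, in which XBP1 and cleaved ATF6 raise the transcription of chaperones such as HSPA5, also known as BiP. The luminal cells of the prostate are secretory cells, and their secretory products include the androgen-regulated protease KLK3, or prostate-specific antigen.

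RNA-seq was run in 4 groups of 3 libraries on C4-2, a castration-resistant subline of the LNCaP prostate cancer line. Cells received siRNA against paxillin, a focal adhesion adaptor encoded by PXN, or a nonspecific siRNA for 48 h, and were serum-starved for 12 h. They were then given 2.5 nM dihydrotestosterone (DHT), the potent androgen made from testosterone, or its ethanol vehicle for 24 h. The groups were paxillin siRNA with DHT, paxillin siRNA with vehicle, nonspecific siRNA with DHT, and nonspecific siRNA with vehicle. The sequence of either siRNA is not given in the labels, and all groups share the transfection, the serum starvation and a single cell line.

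Values are CPM, counts scaled by library size and TMM factor, and changes are log2 fold changes with their standard errors (SE). A gene was called at an adjusted p under 0.05 in edgeR's quasi-likelihood test with Benjamini-Hochberg adjustment over all 16115 genes. The totals ran from 26251814 to 32040465 counts per library for paxillin siRNA with DHT and from 25701219 to 29037657 with vehicle, and from 24207745 to 28298195 for nonspecific siRNA with DHT and from 11944906 to 25303242 with vehicle. PXN stood at 9.36 to 16.7 CPM over the 6 paxillin siRNA libraries, against 121 to 151 CPM over the 6 nonspecific siRNA libraries. FKBP5, a gene known to be induced by androgen, stood at 914 to 1410 CPM over the 6 DHT libraries, against 44.8 to 49.7 CPM over the 6 vehicle libraries. The luminal genes KLK3 and HOXB13 were present in every library, at 3110 to 8880 CPM and 391 to 654 CPM. The defining markers of basal, immune, endothelial and fibroblast cells were at most 16 counts in any library, except COL1A1 at 24.8 to 47.6 CPM, VWF at 8.3 to 15 CPM and COL3A1 at 2 to 50 counts. The labels do not say whether the 3 libraries of a group came from separate cultures, so the p-values measure the spread between these libraries. In bulk libraries, fewer cells expressing a gene and less of its RNA per cell cannot be told apart.

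Promoter sequences from RefSeq (GRCh38.p14), 250 bases before to 50 bases after the annotated start, were matched for 36 of the 38 members. Both strands were searched for the endoplasmic reticulum stress element, the site through which ATF6 acts, spelled CCAAT, 9 bases of any kind, CCACG. It stood in the promoters of 5 of the 36 members, HSPA5, HSP90B1, CALR, CANX and XBP1, which is 13.9%, against 22 of 27305 promoters in all (0.0806%) and 14 of the 10461 promoters of tested genes (0.134%). The 250 bases before the start are shown for HSPA5 and XBP1, which hold the element (in capitals) and were not called in the DHT comparisons, and for PDIA5 and DNAJB9, which had the largest changes under DHT and no match.
HSPA5 (chr9:125241344-125241593, minus strand): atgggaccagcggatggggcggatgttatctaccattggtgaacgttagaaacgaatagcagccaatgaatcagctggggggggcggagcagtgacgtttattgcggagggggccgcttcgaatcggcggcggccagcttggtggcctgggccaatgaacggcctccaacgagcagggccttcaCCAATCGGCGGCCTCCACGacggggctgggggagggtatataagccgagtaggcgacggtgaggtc
XBP1 (chr22:28800570-28800819, minus strand): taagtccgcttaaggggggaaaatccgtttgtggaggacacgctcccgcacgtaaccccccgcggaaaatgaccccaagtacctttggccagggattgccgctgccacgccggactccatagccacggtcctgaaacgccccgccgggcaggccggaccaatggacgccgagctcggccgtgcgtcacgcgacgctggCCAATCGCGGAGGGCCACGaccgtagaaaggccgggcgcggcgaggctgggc
PDIA5 (chr3:123066775-123067024, plus strand): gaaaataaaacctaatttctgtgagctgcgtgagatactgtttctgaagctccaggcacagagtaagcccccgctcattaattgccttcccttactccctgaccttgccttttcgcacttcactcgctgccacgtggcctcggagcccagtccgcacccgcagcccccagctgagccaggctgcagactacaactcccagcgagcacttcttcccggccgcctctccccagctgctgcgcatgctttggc
DNAJB9 (chr7:108569624-108569873, plus strand): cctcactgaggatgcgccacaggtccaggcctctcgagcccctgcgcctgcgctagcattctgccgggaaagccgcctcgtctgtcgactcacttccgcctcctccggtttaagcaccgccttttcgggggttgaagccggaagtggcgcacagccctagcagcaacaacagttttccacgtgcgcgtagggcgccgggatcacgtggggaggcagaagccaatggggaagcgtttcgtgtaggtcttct
The element of HSPA5 ended 48 bases before the start, and that of XBP1 ended 34 bases before it. The second element (ATTGG, 1 base of any kind, CCACG) stood in 3 of the 36 members, HYOU1, SDF2L1 and HERPUD1, against 0.0549% of all promoters. CCACG, which both elements contain, stood in 83.3% of the members' promoters, against 37.9% of all promoters and 49.8% of those of tested genes. The core of the unfolded protein response element, TGACGTG, stood in 5 of the 36 members, HYOU1, DNAJC10, SEC62, SEC23A and SEC24A, which is 13.9%, against 2.53% of the promoters of tested genes. An androgen response element, spelled AGAACA, 3 bases of any kind, TGTTCT, was searched as well. It stood in 0 of the 36 members and 1 of 27305 promoters in all, so members could not be compared by it. These matches describe the letters of one annotated start per gene, and the part of base composition in the shares was not tested. The members were listed by name and include chaperones known to be raised by the unfolded protein response. The shares of its elements were thus partly set by the choice of the list, and are not an independent result.

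DHT raised most of the 38 genes in both siRNA arms. With paxillin siRNA 35 rose and 0 fell, where 20.1% of all tested genes rose and 17.9% fell. With nonspecific siRNA 34 rose and 0 fell, where 21.6% of all tested genes rose and 18.9% fell. By DESeq2 the counts were 36 higher and 0 lower with paxillin siRNA and 34 higher and 0 lower with nonspecific siRNA, and limma-voom gave the same counts. Of all tested genes DESeq2 called 3129 higher and 2807 lower with paxillin siRNA, and 3434 higher and 2990 lower with nonspecific siRNA. Limma-voom called 3294 and 2925, and 3483 and 2990. At an unadjusted p under 0.05 edgeR's test gave 36 and 34 members higher and 0 lower in either arm. In either direction 45.7% of all tested genes reached that p with paxillin siRNA and 48.1% with nonspecific siRNA. The median log2 fold change of the members was 0.52 with paxillin siRNA and 0.51 with nonspecific siRNA, while the medians over all tested genes were -0.01 in both arms. Among the 6772 genes at or above the mean level of the least abundant member (DNAJB9, 25.1 CPM) 32.9% rose with paxillin siRNA and 35.9% with nonspecific siRNA. The 2 arms share no library, but they share the estimate of the spread, and libraries of the same replicate number deviated together across groups. The arms may thus not be independent. Of the members, 34 members were called in both arms, SEC23A only with paxillin siRNA, and HSPA5, XBP1 and CALR in neither.

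The 38 genes together took 2.1% ± 0.084 of all counts in paxillin siRNA cells with DHT, against 1.71% ± 0.096 with vehicle (SD, n = 3 each). In nonspecific siRNA cells the share was 2.04% ± 0.17 with DHT, against 1.69% ± 0.05 with vehicle (SD, n = 3 each). The lowest DHT library stood at 1.86% and the highest vehicle library at 1.79%, so the 6 DHT and 6 vehicle libraries did not overlap.

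**Figure D1:**
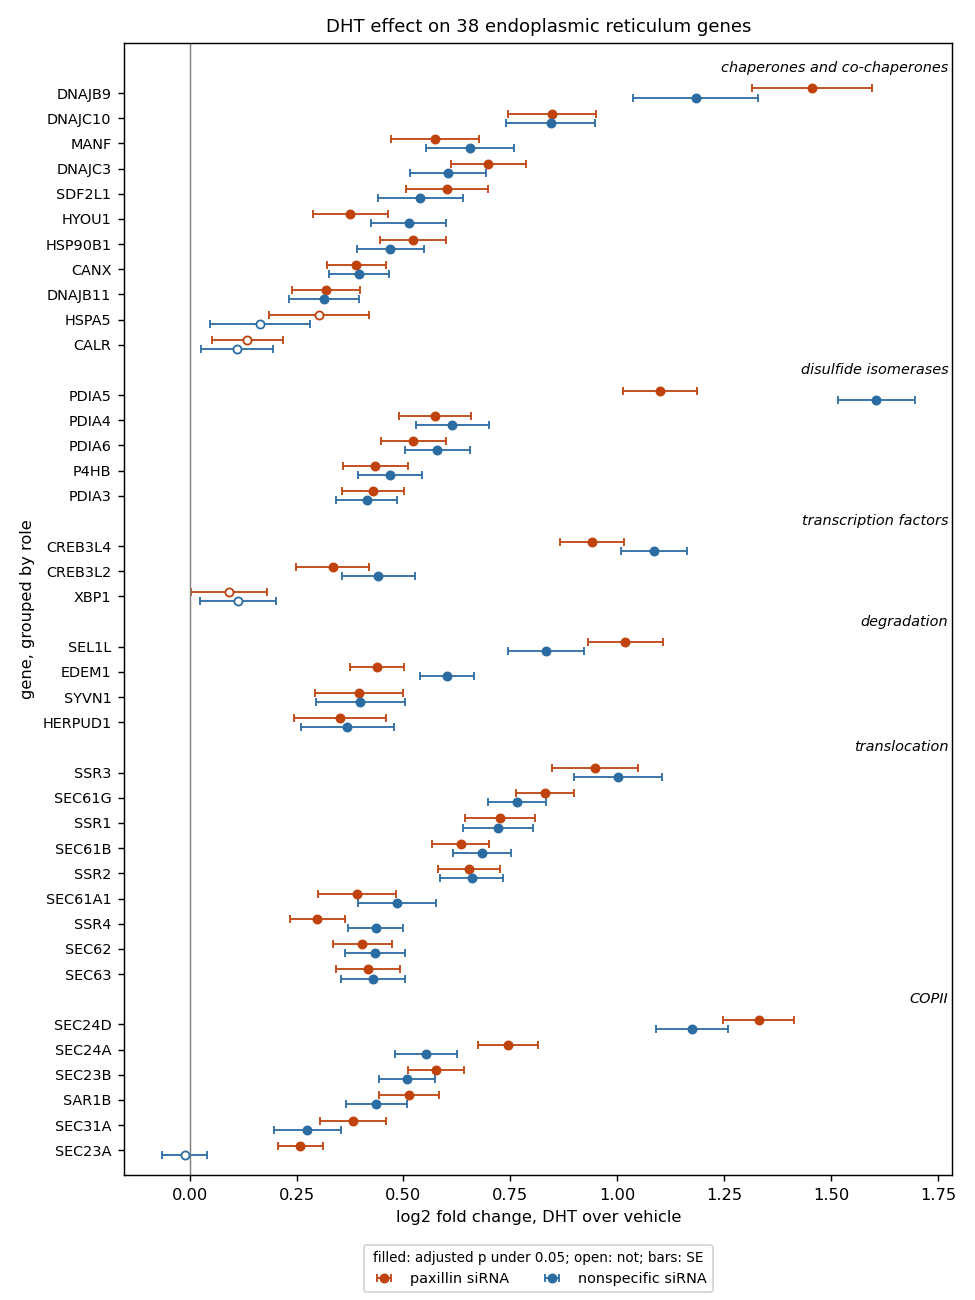
Log2 fold change of DHT over vehicle (horizontal axis) for each of the 38 genes, grouped by role, with paxillin siRNA and with nonspecific siRNA as separate points and bars of ± 1 SE from edgeR, 3 libraries per group. Nearly all points lie right of 0, PDIA5, DNAJB9 and SEC24D lie farthest out, and XBP1, CALR, SEC23A and HSPA5 lie nearest to 0.

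Chaperones hold unfolded chains and the co-chaperones of the DNAJ family regulate the ATPase of HSPA5. Of the 11 genes of this role 9 rose in each arm, with medians of 0.52 with paxillin siRNA and 0.51 with nonspecific siRNA. DNAJB9, a co-chaperone of HSPA5, had the largest change of any member with paxillin siRNA. It stood at 40.7, 30.7 and 43.9 CPM with paxillin siRNA and DHT, against 15.8, 11.6 and 14.6 CPM with vehicle. With nonspecific siRNA DNAJB9 stood at 33.4, 29.6 and 36.6 CPM in DHT, against 18.2, 13.4 and 13.2 CPM in vehicle. The groups did not overlap, and the log2 fold changes were 1.46 ± 0.14 (adjusted p = 2e-07, edgeR) with paxillin siRNA and 1.18 ± 0.15 (adjusted p = 3.9e-06) with nonspecific siRNA. DNAJC10, a reductase of the endoplasmic reticulum that carries a J domain, stood at 172, 194 and 224 CPM with paxillin siRNA and DHT, against 104, 105 and 119 CPM with vehicle. For DNAJC10 the nonspecific siRNA libraries gave 151, 183 and 204 CPM in DHT, against 92.8, 106 and 101 CPM in vehicle. Each DHT library of DNAJC10 lay above every vehicle library of its arm, and the log2 fold changes were 0.85 ± 0.10 (adjusted p = 3.5e-06, edgeR) with paxillin siRNA and 0.84 ± 0.10 (adjusted p = 3.9e-06) with nonspecific siRNA.

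The other chaperones that rose did so by less. DNAJC3, a co-chaperone also called P58IPK, rose by 0.70 with paxillin siRNA and 0.61 with nonspecific siRNA on the log2 scale. MANF and SDF2L1, small stress-induced factors of the lumen, rose by 0.57 and 0.60 with paxillin siRNA and by 0.66 and 0.54 with nonspecific siRNA. HSP90B1, the lumenal HSP90 also called GRP94, rose by 0.52 with paxillin siRNA and 0.47 with nonspecific siRNA. The lectin chaperone CANX, the nucleotide exchange factor HYOU1 and the co-chaperone DNAJB11 rose by 0.32 to 0.39 with paxillin siRNA and by 0.31 to 0.51 with nonspecific siRNA.

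HSPA5, the central HSP70 chaperone of the endoplasmic reticulum, was not called in either arm. It measured 1690, 1340 and 1610 CPM with paxillin siRNA and DHT, against 1440, 1040 and 1290 CPM with vehicle. With nonspecific siRNA HSPA5 measured 1450, 1470 and 1720 CPM in DHT, against 1580, 1290 and 1280 CPM in vehicle. DHT and vehicle libraries overlapped in both arms, and the log2 fold changes were 0.30 ± 0.12 (adjusted p = 0.051, edgeR) with paxillin siRNA and 0.16 ± 0.12 (adjusted p = 0.29) with nonspecific siRNA. The value with paxillin siRNA lay at the threshold: blocking on the replicate number gave an adjusted p of 0.003, DESeq2 gave 0.034, limma-voom 0.044 and edgeR without the filter on low counts 0.00014. The same value was called without paxillin siRNA DHT replicate 2 (adjusted p = 0.022, edgeR), paxillin siRNA vehicle replicate 1 (0.015), nonspecific siRNA DHT replicate 3 (0.045) or nonspecific siRNA vehicle replicate 1 (0.043). CALR, the soluble lectin chaperone calreticulin, measured 3140, 3240 and 3290 CPM with paxillin siRNA and DHT, against 2970, 2730 and 3100 CPM with vehicle. In nonspecific siRNA cells CALR measured 2790, 3180 and 3400 CPM with DHT, against 3110, 2840 and 2730 CPM with vehicle. The CALR libraries overlapped with nonspecific siRNA and not with paxillin siRNA, and neither arm was called, with log2 fold changes of 0.14 ± 0.08 (adjusted p = 0.22, edgeR) with paxillin siRNA and 0.11 ± 0.08 (adjusted p = 0.31) with nonspecific siRNA. Per kilobase of exon it had the highest level of the 38 genes in every group, for example 1060 ± 73.7 CPM per kilobase (SD, n = 3) with nonspecific siRNA and vehicle, where SEC24D had the lowest at 4.52.

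The disulfide isomerases form and rearrange the disulfide bonds of secreted proteins, and all 5 rose in both arms. PDIA5, the member with the largest change in nonspecific siRNA cells, stood at 148, 134 and 143 CPM with paxillin siRNA and DHT, against 59.7, 61.9 and 76.4 CPM with vehicle. With nonspecific siRNA PDIA5 stood at 153, 145 and 155 CPM in DHT, against 56.2, 47.4 and 46.5 CPM in vehicle. The DHT libraries of both arms lay close together and far above the vehicle libraries. Its log2 fold changes were 1.10 ± 0.09 (adjusted p = 1.3e-08, edgeR) with paxillin siRNA and 1.61 ± 0.09 (adjusted p = 1.3e-10) with nonspecific siRNA. The other 4, P4HB, PDIA3, PDIA4 and PDIA6, rose by 0.43 to 0.57 with paxillin siRNA and by 0.41 to 0.61 with nonspecific siRNA. PDIA5 shares 490 exon bases with SEC22A on the same strand, 12.2% of its exon length, and SEC22A had 230 to 571 counts per library.

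Among the transcription factors CREB3L4 and CREB3L2 rose in both arms and XBP1 was not called. CREB3L4, a membrane-bound factor of the CREB3 family first described in prostate cells as AIbZIP, measured 245, 265 and 267 CPM with paxillin siRNA and DHT, against 129, 131 and 144 CPM with vehicle. With nonspecific siRNA CREB3L4 measured 219, 263 and 274 CPM in DHT, against 116, 120 and 120 CPM in vehicle. No DHT library fell near a vehicle library, and the log2 fold changes were 0.94 ± 0.08 (adjusted p = 1.8e-08, edgeR) with paxillin siRNA and 1.09 ± 0.08 (adjusted p = 3.2e-09) with nonspecific siRNA. CREB3L2, a relative of it that controls genes of COPII export in mouse cartilage, rose by 0.33 with paxillin siRNA and 0.44 with nonspecific siRNA. XBP1, whose RNA is spliced by IRE1 to encode the active factor, measured 352, 295 and 356 CPM with paxillin siRNA and DHT, against 335, 277 and 329 CPM with vehicle. In nonspecific siRNA cells XBP1 measured 379, 365 and 439 CPM with DHT, against 367, 349 and 379 CPM with vehicle. Its libraries overlapped, the log2 fold changes were 0.09 ± 0.09 (adjusted p = 0.45, edgeR) with paxillin siRNA and 0.11 ± 0.09 (adjusted p = 0.33) with nonspecific siRNA, and gene counts do not tell spliced XBP1 RNA from unspliced.

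**Figure D2:**
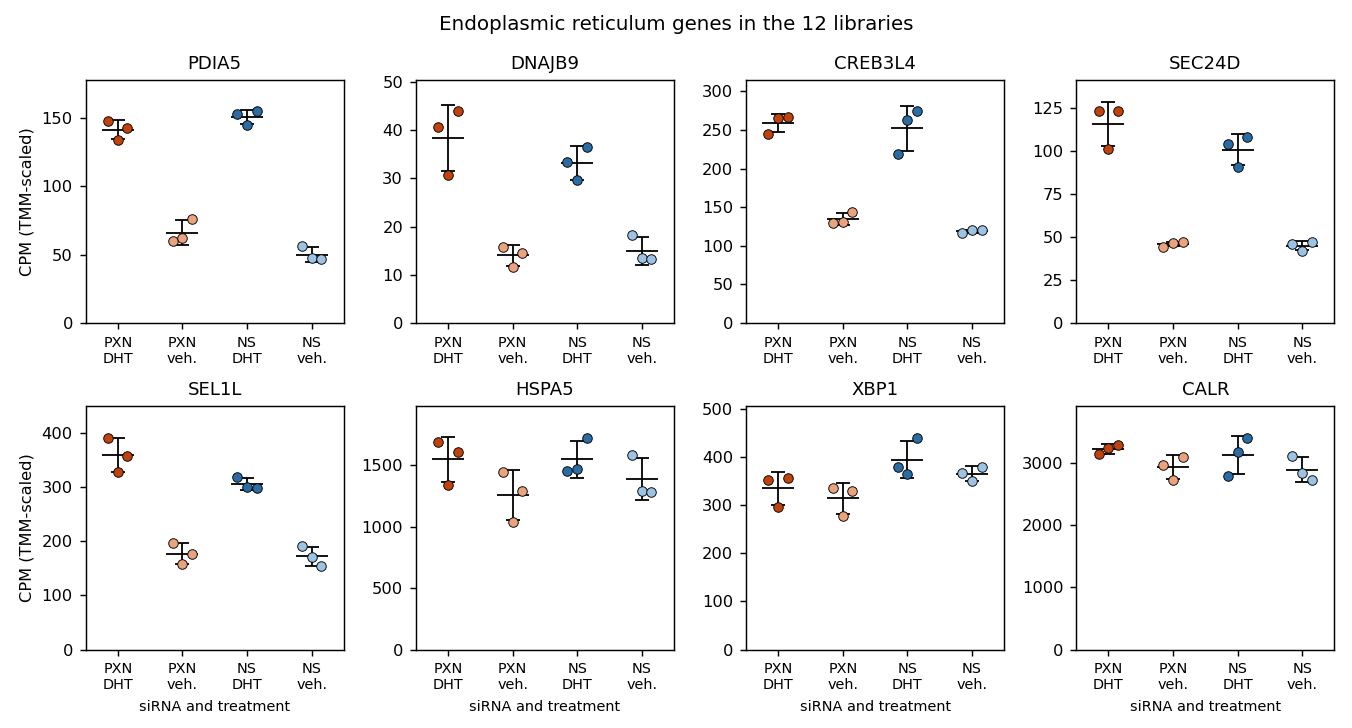
CPM (vertical axes) of selected members in each of the 12 libraries, with points for libraries, horizontal lines for group means and whiskers of ± 1 SD (n = 3), in the order paxillin siRNA (PXN) with DHT, paxillin siRNA with vehicle, nonspecific siRNA (NS) with DHT and nonspecific siRNA with vehicle. The DHT libraries of PDIA5, DNAJB9, CREB3L4, SEC24D and SEL1L lie above all vehicle libraries, while DHT and vehicle libraries of HSPA5, XBP1 and CALR overlap.

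All 4 genes of degradation rose in both arms. SEL1L, the scaffold of the HRD1 ubiquitin ligase, measured 390, 327 and 357 CPM with paxillin siRNA and DHT, against 197, 158 and 176 CPM with vehicle. With nonspecific siRNA SEL1L measured 319, 299 and 298 CPM in DHT, against 190, 171 and 154 CPM in vehicle. The groups were well apart, and the log2 fold changes were 1.02 ± 0.09 (adjusted p = 4.4e-08, edgeR) with paxillin siRNA and 0.83 ± 0.09 (adjusted p = 6.1e-07) with nonspecific siRNA. SYVN1, the HRD1 ligase itself, rose by 0.40 in both arms. EDEM1, which directs misfolded glycoproteins to degradation, rose by 0.44 with paxillin siRNA and 0.60 with nonspecific siRNA. HERPUD1, a stress-induced partner of the ligase, rose least, by 0.35 with paxillin siRNA (adjusted p = 0.015, edgeR) and 0.37 with nonspecific siRNA (adjusted p = 0.011). Its call rested on single libraries: the adjusted p was 0.084 without paxillin siRNA DHT replicate 1, 0.1 without paxillin siRNA vehicle replicate 2 and 0.065 without nonspecific siRNA vehicle replicate 2, by edgeR. With upper-quartile scaling the paxillin siRNA arm of HERPUD1 had an adjusted p of 0.054 by edgeR.

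All 9 genes of translocation rose in both arms, with medians of 0.63 with paxillin siRNA and 0.66 with nonspecific siRNA. SSR1 to SSR4 encode the translocon-associated protein complex, which sits beside the channel. SSR3 measured 447, 446 and 562 CPM with paxillin siRNA and DHT, against 247, 245 and 262 CPM with vehicle. With nonspecific siRNA SSR3 measured 407, 481 and 553 CPM in DHT, against 224, 245 and 250 CPM in vehicle. The log2 fold changes of SSR3, with no overlap between groups, were 0.95 ± 0.10 (adjusted p = 6.8e-07, edgeR) with paxillin siRNA and 1.00 ± 0.10 (adjusted p = 3.6e-07) with nonspecific siRNA. The subunits of that complex did not move by one factor, since SSR4 rose by 0.30 with paxillin siRNA and 0.43 with nonspecific siRNA, and SSR1 and SSR2 lay between. Of the SEC61 channel, the small subunits SEC61G and SEC61B rose by 0.83 and 0.63 with paxillin siRNA and by 0.77 and 0.68 with nonspecific siRNA. The pore subunit SEC61A1 rose by 0.39 with paxillin siRNA and 0.49 with nonspecific siRNA. SEC62 and SEC63, which assist the translocation of some precursors, rose by 0.40 and 0.42 with paxillin siRNA and by 0.43 in both cases with nonspecific siRNA.

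Of the 6 COPII genes, 6 rose with paxillin siRNA and 5 with nonspecific siRNA. SEC24D, a cargo adaptor of the inner coat, measured 123, 101 and 123 CPM with paxillin siRNA and DHT, against 44.4, 46.3 and 47.1 CPM with vehicle. With nonspecific siRNA SEC24D measured 104, 90.6 and 108 CPM in DHT, against 45.7, 41.8 and 47 CPM in vehicle. The vehicle libraries of both arms were close together, and the log2 fold changes were 1.33 ± 0.08 (adjusted p = 5.7e-10, edgeR) with paxillin siRNA and 1.18 ± 0.08 (adjusted p = 4.1e-09) with nonspecific siRNA. SEC24A, the other SEC24 adaptor among these 6 genes, rose by 0.74 with paxillin siRNA and 0.55 with nonspecific siRNA. SEC23B, a partner of SEC24A in the inner coat, rose by 0.58 with paxillin siRNA and 0.51 with nonspecific siRNA. SAR1B, the GTPase that starts the coat, rose by 0.51 with paxillin siRNA and 0.44 with nonspecific siRNA, and the outer coat gene SEC31A by 0.38 with paxillin siRNA and 0.28 with nonspecific siRNA. SEC23A measured 166, 175 and 172 CPM with paxillin siRNA and DHT, against 140, 147 and 141 CPM with vehicle, a log2 fold change of 0.26 ± 0.05 (adjusted p = 0.00083, edgeR). In nonspecific siRNA cells SEC23A measured 164, 167 and 163 CPM with DHT, against 161, 167 and 170 CPM with vehicle, a log2 fold change of -0.01 ± 0.05 (adjusted p = 0.88, edgeR). The vehicle libraries of the paxillin siRNA arm were the 3 lowest of the 12 for SEC23A, and the other 3 groups overlapped.

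Members that hold the endoplasmic reticulum stress element had a lower median change under DHT than the other members, with overlapping ranges. The second element, TGACGTG and CCACG did not show this in both arms. The median log2 fold change of the 5 genes was 0.30 with paxillin siRNA, over a range of 0.09 to 0.52, and 0.16 with nonspecific siRNA, over a range of 0.11 to 0.47. The 31 other members with a promoter had medians of 0.57 with paxillin siRNA and 0.55 with nonspecific siRNA, and their ranges of 0.26 to 1.46 and -0.01 to 1.61 overlapped those of the 5 genes. Medians with and without the second element were 0.38 and 0.52 with paxillin siRNA and both 0.51 with nonspecific siRNA. With and without TGACGTG they were 0.40 and 0.52 with paxillin siRNA and again both 0.51 with nonspecific siRNA. With and without CCACG they were 0.52 and 0.48 with paxillin siRNA and 0.53 and 0.50 with nonspecific siRNA. These are descriptions without a test. The promoters shown above were picked by their DHT result and their match, so they are not a further observation of this difference. Of the genes with the element, HSPA5, XBP1 and CALR were called in neither arm by edgeR. HSPA5 with paxillin siRNA lay at the threshold (adjusted p = 0.051, edgeR) and was called by DESeq2 (0.034) and limma-voom (0.044). HSP90B1 and CANX hold it and rose, by 0.52 and 0.39 with paxillin siRNA and by 0.47 and 0.40 with nonspecific siRNA. The promoters of PDIA5 and DNAJB9 hold neither full element nor TGACGTG, but do hold CCACG.

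**Figure D3:**
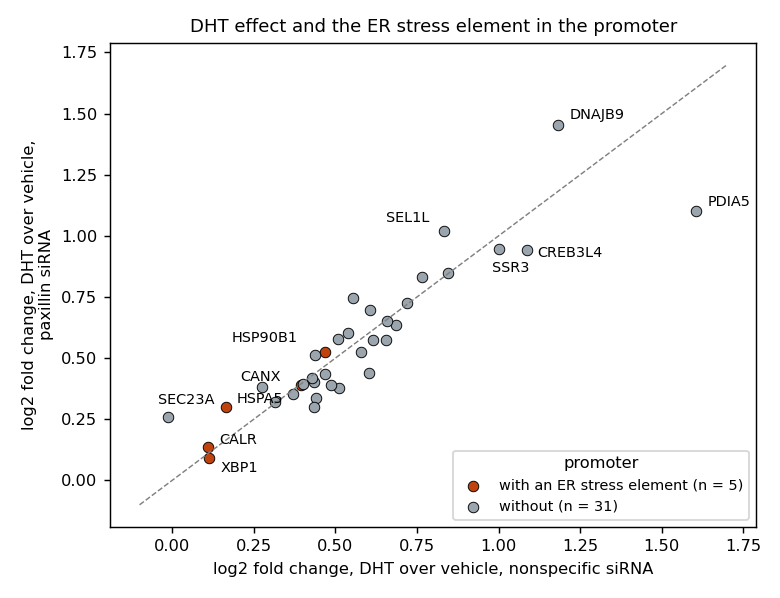
Log2 fold change of DHT over vehicle with paxillin siRNA (vertical axis) against that with nonspecific siRNA (horizontal axis) for the 36 members with a RefSeq promoter, 1 point per gene, with the 5 that hold the endoplasmic reticulum stress element in orange, the other 31 in grey and equality as a dashed line. CALR, XBP1 and HSPA5 lie at the lower left, HSP90B1 and CANX lie among the grey points, and PDIA5 lies farthest below the line.

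Paxillin siRNA changed a minority of the 38 genes. In DHT 2 rose and 3 fell, where 6.34% of all tested genes rose and 7% fell, and in vehicle 3 rose and 3 fell, where 10.7% rose and 9.78% fell. The shares of members called, 13.2% in DHT and 15.8% in vehicle, were close to or below the 13.3% and 20.5% of all tested genes called in either direction. Among the 6772 genes at or above the mean level of the least abundant member, 16.2% were called in DHT and 27.8% in vehicle. The median log2 fold change of the members was 0.02 in DHT and 0.01 in vehicle. With the replicate number as a block, 5 members were higher and 6 lower in DHT, and 4 were higher and 5 lower in vehicle. The block raised the share of members called to 28.9% in DHT, where 21.6% of all tested genes were called, and to 23.7% in vehicle, where 28.3% were called. In DHT the block added SEC31A (adjusted p = 0.0054, edgeR), SEL1L (0.0075) and SEC24D (0.021) to the higher genes, and XBP1 (0.0044), HYOU1 (0.01) and CREB3L2 (0.03) to the lower ones. In vehicle it added CREB3L4 (adjusted p = 0.021, edgeR) to the higher genes, and XBP1 (0.0061) and SEC61G (0.038) to the lower ones. Counts of lower genes turned on single libraries. In DHT 1 was lower without nonspecific siRNA DHT replicate 2, and 0 without nonspecific siRNA DHT replicate 3 or paxillin siRNA DHT replicate 2. In vehicle 1 was lower without nonspecific siRNA vehicle replicate 1 or paxillin siRNA vehicle replicate 2 or 3. None of the 11 chaperones was called by edgeR in either comparison. At an unadjusted p under 0.05 and by DESeq2, 1 chaperone, HYOU1, was lower in DHT and 0 were changed in vehicle, and limma-voom called 0 in both. Of all tested genes, 27.9% in DHT and 32.9% in vehicle had an unadjusted p under 0.05 by edgeR. DESeq2 called 1140 of all tested genes higher and 1180 lower in DHT, and 1819 higher and 1535 lower in vehicle. By limma-voom these were 936 and 1122 in DHT, and 1684 and 1569 in vehicle. HYOU1 had 405, 375 and 392 CPM with paxillin siRNA and DHT, against 417, 460 and 535 CPM with nonspecific siRNA and DHT, a log2 fold change of -0.27 ± 0.09 (adjusted p = 0.051, edgeR). The lowest nonspecific siRNA library of HYOU1 lay above the highest paxillin siRNA library, and its adjusted p by edgeR was 0.019 without nonspecific siRNA DHT replicate 1, 0.049 without nonspecific siRNA vehicle replicate 1, and 0.042, 0.032 and 0.046 without paxillin siRNA vehicle replicates 1, 2 and 3. Other members came under the threshold in DHT when a library was left out. SEC31A had an adjusted p of 0.024 without paxillin siRNA DHT replicate 1, and 0.044 and 0.05 without nonspecific siRNA vehicle replicates 1 and 3, by edgeR. SEC24D had 0.033 without paxillin siRNA DHT replicate 2 and CREB3L2 0.035 without paxillin siRNA DHT replicate 1, and in vehicle CREB3L4 had 0.046 without nonspecific siRNA DHT replicate 1.

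The 2 genes higher in both hormone states were SEC24A and SAR1B. SEC24A measured 164, 166 and 195 CPM with paxillin siRNA and DHT, against 126, 121 and 126 CPM with nonspecific siRNA and DHT, a log2 fold change of 0.49 ± 0.07 (adjusted p = 0.00025, edgeR). In vehicle SEC24A measured 97.5, 109 and 107 CPM with paxillin siRNA, against 82.5, 81.8 and 90.3 CPM with nonspecific siRNA, a log2 fold change of 0.30 ± 0.07 (adjusted p = 0.0075, edgeR). SEC24A libraries did not overlap between siRNAs in either state. SAR1B measured 226, 228 and 250 CPM with paxillin siRNA and DHT, against 175, 183 and 196 CPM with nonspecific siRNA and DHT, a log2 fold change of 0.34 ± 0.07 (adjusted p = 0.0035, edgeR). In vehicle SAR1B measured 161, 156 and 177 CPM with paxillin siRNA, against 149, 130 and 131 CPM with nonspecific siRNA, a log2 fold change of 0.27 ± 0.07 (adjusted p = 0.013, edgeR). The vehicle call was lost without nonspecific siRNA vehicle replicate 2 (adjusted p = 0.062, edgeR) or paxillin siRNA vehicle replicate 3 (adjusted p = 0.07). In GENCODE 29 the 2 genes lie on opposite strands of chromosome 5, SEC24A at chr5:134648789-134727823 and SAR1B at chr5:134601144-134649271, and share 385 exon bases, 5.3% of the exon length of SEC24A and 3.5% of that of SAR1B. The strand setting of the counting is not given in the sources used here, so reads over those bases could be counted for either gene or neither.

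The translocon-associated subunits SSR1 and SSR2 were lower in both hormone states. SSR1 measured 390, 353 and 401 CPM with paxillin siRNA and DHT, against 418, 447 and 518 CPM with nonspecific siRNA and DHT, a log2 fold change of -0.27 ± 0.08 (adjusted p = 0.031, edgeR). In vehicle SSR1 measured 246, 210 and 235 CPM with paxillin siRNA, against 289, 274 and 277 CPM with nonspecific siRNA, a log2 fold change of -0.28 ± 0.08 (adjusted p = 0.021, edgeR). SSR2 measured 602, 550 and 533 CPM with paxillin siRNA and DHT, against 638, 685 and 714 CPM with nonspecific siRNA and DHT, a log2 fold change of -0.27 ± 0.07 (adjusted p = 0.019, edgeR). The libraries of SSR1 and SSR2 did not overlap between siRNAs in either state. In vehicle SSR2 measured 383, 340 and 349 CPM with paxillin siRNA, against 463, 411 and 417 CPM with nonspecific siRNA, a log2 fold change of -0.27 ± 0.07 (adjusted p = 0.016, edgeR). These calls rested on single libraries. In DHT that of SSR1 was lost without nonspecific siRNA DHT replicate 2 (adjusted p = 0.063, edgeR) or 3 (0.16, where the log2 fold change was -0.18), or paxillin siRNA DHT replicate 2 (0.15). That of SSR2 in DHT was lost without nonspecific siRNA DHT replicate 2 (adjusted p = 0.067, edgeR) or 3 (0.078), or paxillin siRNA DHT replicate 2 (0.075) or 3 (0.081). In vehicle that of SSR1 was lost without any one of the 3 nonspecific siRNA vehicle replicates (adjusted p of 0.064, 0.057 and 0.051, edgeR), or paxillin siRNA vehicle replicate 2 (0.13) or 3 (0.054). In vehicle that of SSR2 was lost without nonspecific siRNA vehicle replicate 1 (adjusted p = 0.067, edgeR), or paxillin siRNA vehicle replicate 2 (0.087) or 3 (0.069). The other 2 subunits, SSR3 and SSR4, were not called in either state.

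The remaining calls were each in a single hormone state. EDEM1 measured 197, 176 and 186 CPM with paxillin siRNA and DHT, against 214, 220 and 232 CPM with nonspecific siRNA and DHT, a log2 fold change of -0.25 ± 0.06 (adjusted p = 0.012, edgeR). Without nonspecific siRNA DHT replicate 3 its adjusted p was 0.057, and without paxillin siRNA DHT replicate 2 it was 0.072. In vehicle PDIA5 was higher with paxillin siRNA, at 59.7, 61.9 and 76.4 CPM, against 56.2, 47.4 and 46.5 CPM with nonspecific siRNA, a log2 fold change of 0.41 ± 0.09 (adjusted p = 0.0037, edgeR). In vehicle SEC23A was lower with paxillin siRNA, at 140, 147 and 141 CPM, against 161, 167 and 170 CPM with nonspecific siRNA, a log2 fold change of -0.22 ± 0.05 (adjusted p = 0.0085, edgeR). Without the filter on low counts the adjusted p of SEC23A was 0.059 by edgeR. Libraries of the 2 siRNAs did not overlap for any of these 3 genes.

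**Figure D4:**
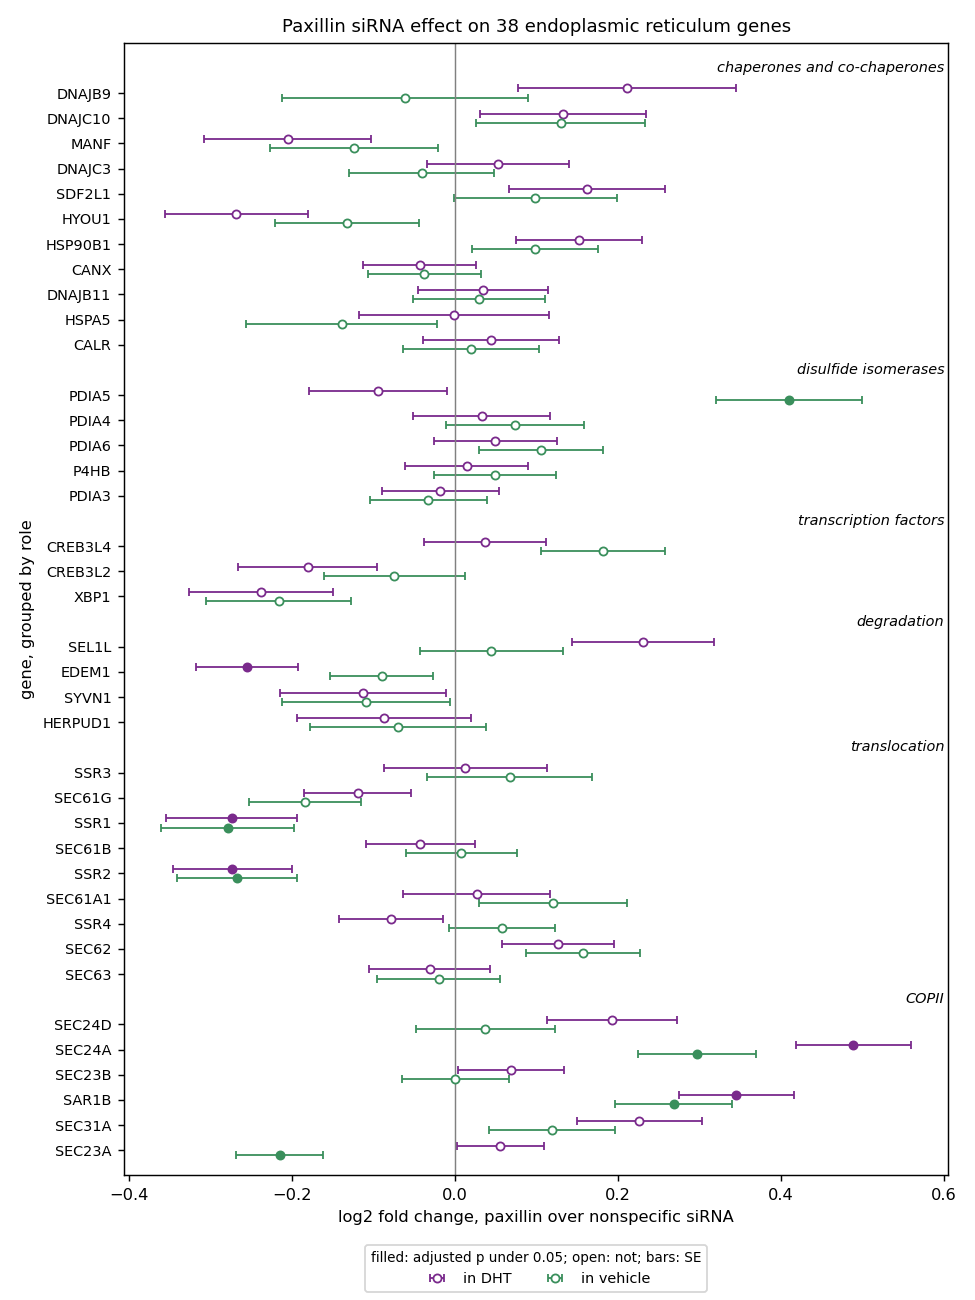
Log2 fold change of paxillin over nonspecific siRNA (horizontal axis) for each of the 38 genes, grouped by role, in DHT and in vehicle as separate points with bars of ± 1 SE from edgeR, 3 libraries per group. Most points lie near 0, SEC24A and SAR1B lie to the right in both states, and SSR1 and SSR2 lie to the left.

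Whether paxillin siRNA altered the response to DHT was tested as an interaction. It called 0 of the 38 members by edgeR, where 0.0496% of all tested genes were called. By limma-voom it called 0 of all tested genes, so the 0 members there say nothing of the members in particular. At an unadjusted p under 0.05 it gave 2 members, PDIA5 and SEC23A, where 8.9% of all tested genes reached that. DESeq2 called the same 2 genes, where 29 of the 16115 tested genes were higher and 23 lower. With the replicate block the interaction called 2.63% of the members and 0.602% of all tested genes. The difference between the DHT effects of PDIA5, paxillin siRNA minus nonspecific siRNA, was -0.50 ± 0.12 on the log2 scale (adjusted p = 0.23, edgeR), and it was called by DESeq2 (adjusted p = 0.039), with the replicate block (0.027) and without the filter on low counts (0.0011). That of SEC23A was 0.27 ± 0.08 (adjusted p = 0.33, edgeR), with an adjusted p of 0.045 by DESeq2. By edgeR, the call of SEC23A with paxillin siRNA only is therefore not shown to be a difference between the arms.

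A further 69 genes of the same pathways, named beside the 38, rose more often than they fell under DHT. With paxillin siRNA 38 rose and 3 fell, at a median of 0.30 on the log2 scale, and with nonspecific siRNA 39 rose and 5 fell, at a median of 0.25. Of all tested genes 20.1% rose and 17.9% fell with paxillin siRNA, and 21.6% rose and 18.9% fell with nonspecific siRNA. Among those that rose were SPCS3, a signal peptidase subunit (1.03 with paxillin siRNA, 1.21 with nonspecific siRNA), EDEM3, a mannosidase of degradation (1.17 with paxillin siRNA, 1.02 with nonspecific siRNA), and SEC11C, a catalytic subunit of signal peptidase (0.84 with paxillin siRNA, 0.80 with nonspecific siRNA). ERO1A, the oxidase that reoxidizes disulfide isomerases, rose by 0.79 with paxillin siRNA and 0.80 with nonspecific siRNA. The cargo receptor gene LMAN1 rose by 0.69 with paxillin siRNA and 0.72 with nonspecific siRNA.

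The sensors of the unfolded protein response moved apart from each other under DHT. ERN1, which encodes IRE1, measured 88.7, 81.2 and 75.9 CPM with paxillin siRNA and DHT, against 42.6, 38.9 and 41.2 CPM with vehicle, a log2 fold change of 1.00 ± 0.07 (adjusted p = 4.9e-09, edgeR). With nonspecific siRNA ERN1 measured 107, 111 and 107 CPM in DHT, against 55.8, 49.2 and 46.2 CPM in vehicle, a log2 fold change of 1.11 ± 0.07 (adjusted p = 1.4e-09, edgeR). ATF6 measured 53.6, 54.9 and 59.8 CPM with paxillin siRNA and DHT, against 70.2, 63.4 and 71.4 CPM with vehicle, and fell by 0.29 on the log2 scale (adjusted p = 0.0015, edgeR). ATF6 moved the same way with nonspecific siRNA, at 68.3, 69 and 72.5 CPM in DHT, against 87.4, 85.3 and 87.9 CPM in vehicle, and fell by 0.31 (adjusted p = 0.00066, edgeR). EIF2AK3, which encodes PERK, had log2 fold changes of -0.07 with paxillin siRNA and 0.12 with nonspecific siRNA and was not called. DDIT3, which encodes the stress-induced factor CHOP, fell by 0.52 with paxillin siRNA (adjusted p = 0.00063, edgeR) and by 0.57 with nonspecific siRNA (adjusted p = 0.00027).

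All 3 sensors were lower with paxillin siRNA in both hormone states. EIF2AK3 measured 53.6, 38.2 and 48.5 CPM with paxillin siRNA and DHT, against 72.3, 64 and 71.3 CPM with nonspecific siRNA and DHT, a log2 fold change of -0.56 ± 0.11 (adjusted p = 0.0029, edgeR). In vehicle EIF2AK3 measured 50.5, 40.4 and 56.6 CPM with paxillin siRNA, against 64.6, 60.8 and 65.4 CPM with nonspecific siRNA, a log2 fold change of -0.37 ± 0.11 (adjusted p = 0.027, edgeR). That vehicle call was lost without any one of the 3 nonspecific siRNA replicates (adjusted p of 0.064, 0.06 and 0.087, edgeR) or without paxillin siRNA replicate 2 (0.16). The CPM of ATF6 given above correspond to log2 fold changes of -0.32 ± 0.06 in DHT (adjusted p = 0.0027, edgeR) and -0.35 ± 0.06 in vehicle (adjusted p = 0.00093). For ERN1 they were -0.40 ± 0.07 in DHT (adjusted p = 0.0012, edgeR) and -0.29 ± 0.08 in vehicle (adjusted p = 0.01), and the vehicle call was lost without paxillin siRNA vehicle replicate 2 (0.06). ATF4, the factor translated when PERK is active, measured 394, 376 and 329 CPM with paxillin siRNA and DHT, against 483, 497 and 482 CPM with nonspecific siRNA and DHT, a log2 fold change of -0.41 ± 0.08 (adjusted p = 0.0019, edgeR). In vehicle ATF4 measured 450, 416 and 367 CPM with paxillin siRNA, against 466, 489 and 475 CPM with nonspecific siRNA, a log2 fold change of -0.21 ± 0.08 that was not called (adjusted p = 0.057, edgeR). That vehicle value was called by DESeq2 (adjusted p = 0.042), limma-voom (0.046) and edgeR with the replicate block (0.0094), and by edgeR without paxillin siRNA DHT replicate 3 (0.041) or paxillin siRNA vehicle replicate 1 (0.02). MCFD2, a partner of LMAN1 in export, fell by 0.46 in DHT (adjusted p = 0.0015, edgeR) and by 0.47 in vehicle (adjusted p = 9e-04).

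Over the 69 genes, 2 rose and 8 fell with paxillin siRNA in DHT, and 0 rose and 9 fell in vehicle. Of all tested genes 6.34% rose and 7% fell in DHT, and 10.7% rose and 9.78% fell in vehicle. In vehicle DESeq2 called 1 of the 69 higher and 10 lower, and limma-voom 0 higher and 11 lower. Of all tested genes DESeq2 called 1819 higher and 1535 lower there, and limma-voom 1684 higher and 1569 lower. At an unadjusted p under 0.05 by edgeR, 6 of the 69 were higher and 20 lower in vehicle. Of all tested genes 32.9% reached that in either direction. With the replicate block 4 of the 69 were higher and 17 lower in DHT, and 5 were higher and 18 lower in vehicle, more than 1.5 times the counts without it. The block called 10.4% of all tested genes higher and 11.2% lower in DHT, and 14.8% higher and 13.5% lower in vehicle. The DHT and vehicle comparisons of the siRNAs use separate libraries, while each shares libraries with the comparisons of DHT with vehicle. Libraries of the same replicate number deviated together across groups, so comparisons on separate libraries may not be independent.

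**Figure D5:**
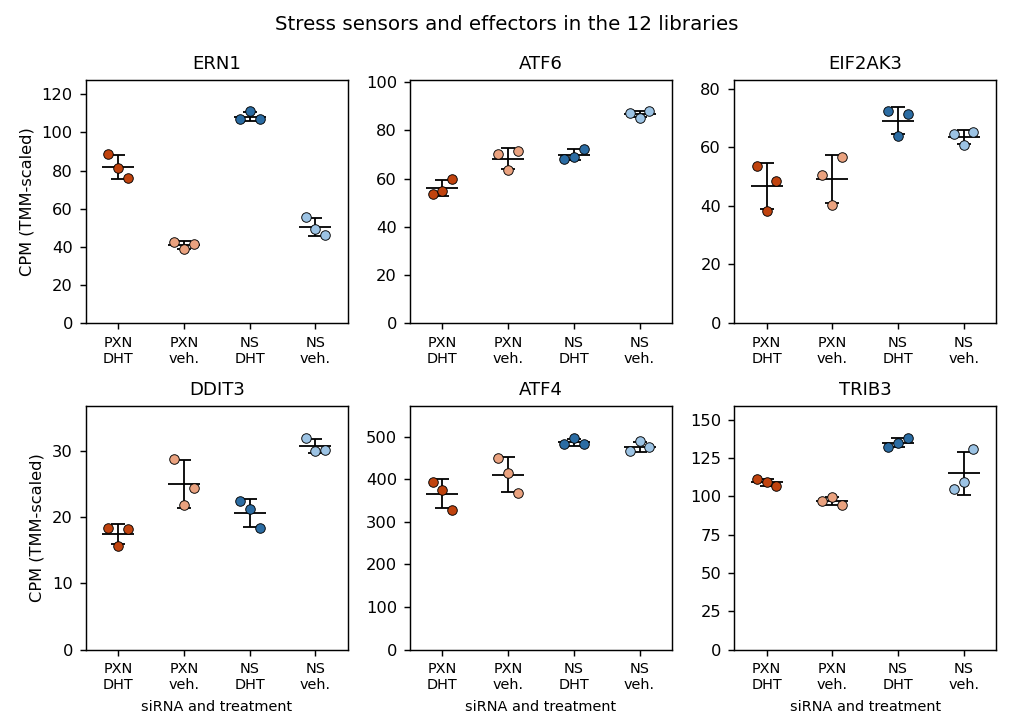
CPM (vertical axes) of the sensor genes of the unfolded protein response and of genes downstream of them in each of the 12 libraries, with points for libraries, horizontal lines for group means and whiskers of ± 1 SD (n = 3), in the order paxillin siRNA (PXN) with DHT, paxillin siRNA with vehicle, nonspecific siRNA (NS) with DHT and nonspecific siRNA with vehicle. The DHT libraries of ERN1 lie above its vehicle libraries, those of ATF6 lie below its vehicle libraries within each arm, and the paxillin siRNA libraries of both lie below the nonspecific siRNA libraries of the same hormone state.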

How the data were processed

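The data were gene-level counts from stranded, poly(A)-selected RNA-seq of 12 libraries. Per the submitters' processing notes, the authors used Trimmomatic 0.36, STAR 2.5.2b and featureCounts of Subread 1.5.0p3 with genome build GRCh38. The deposited values are raw counts per gene symbol, not normalized. Which annotation release and strand setting the counting used is not given in the sources used here, so values of genes that overlap another gene are uncertain: PDIA6 shares 25.2% of its exon bases with ATP6V1C2, PDIA3 14.8% with ELL3, CREB3L4 9.6% with SLC39A1 and SYVN1 7.2% with FAU. PDIA3P1, a processed copy of PDIA3, had 67 to 368 counts, and PDIA3 had at least 11977.

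From the counts, edgeR 4.0.16 in R 4.3.3 was run with filterByExpr (minimum count 10, minimum total 15), TMM scaling, 4 group means over all 12 libraries and quasi-likelihood F tests. Contrasts were DHT against vehicle in each siRNA arm, paxillin against nonspecific siRNA in each hormone state, and their interaction. SE is the size of the log2 fold change divided by the square root of F. The alternatives replaced TMM by RLE or by upper-quartile scaling, dropped the filter, used DESeq2 1.42.0 or limma-voom (limma 3.58.1), added the replicate number as a block, fitted only the compared groups, lowered the adjusted p to 0.01, or left out each library. The scripts were tested on simulated data.

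All 4 groups share replicate numbers in the labels. Over 8078 genes, libraries with the same number deviated from their group means together in all 18 pairs (Pearson's r from 0.19 to 0.51, across genes). The 36 pairs with different numbers had r from -0.46 to 0.27. Deviations from a group mean cancel out within the group, so these values are partly set by the pairs with the same number. They are not a separate comparison. From the pairs with the same number, the numbers may pair the libraries, but no source says what they mark. The main tests have no block, since no source names one, so calls near the threshold depend on that choice. Member calls that the block changed are given with the results. Libraries of a group differed by more than counting noise, at 6.16 to 18.6 times the chi-square that counting noise gives. The members were taken by name, and the members and the list of 69 further genes were chosen with earlier results of these data known. Values per library are given for HSPA5, XBP1 and CREB3L4, the 6 members with the largest rise under DHT in each arm, and every member called between siRNAs. CALR, HYOU1 and the genes named from the 69 were chosen for description after their values were seen. Gene positions and exon lengths are from GENCODE 29, and promoters from RefSeq (GRCh38.p14). Promoters of PDIA3 and SEC24D are not shown.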

Additional observations from a re-analysis of the deposited data

How the results depend on the processing

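Over the alternatives, 3688 of 3762 values of single members kept their direction and side of the threshold, 32 lost a call, 42 gained one and 0 changed direction. Members higher under DHT numbered 34 to 36 with paxillin siRNA and 33 to 34 with nonspecific siRNA when single libraries were left out, and 0 were lower. Upper-quartile scaling moved the all-gene split under DHT to 2262 higher and 3935 lower with paxillin siRNA (3234 and 2886 with TMM) and to 2707 and 3896 with nonspecific siRNA (3481 and 3053), with median shifts of -0.086 and -0.072, and left 34 members higher and 0 lower in each arm. Members higher with paxillin siRNA in DHT (2) numbered 4 without the filter, 5 with the replicate block and 4 with the compared groups alone, and 2 to 3 with single libraries left out. Members lower in DHT (3) numbered 5 without the filter, 6 with the replicate block, 0 at an adjusted p under 0.01, and 0 to 4 with single libraries left out. In vehicle, members lower (3) numbered 5 with the replicate block, 1 at an adjusted p under 0.01 and 1 to 3 with single libraries left out, and members higher (3) numbered 2 to 4. The interaction called 0 members, against 1 higher and 1 lower by DESeq2, 1 lower without the filter and 1 lower with the replicate block. Among all tested genes DESeq2 called 29 higher and 23 lower, and the block called 0.602%. The cause of these shifts was not tested. Apart from the calls named above, the replicate block changed no call of a member. With 3 libraries a group, the calls of SSR1 and SSR2 between siRNAs were at the limit of what these libraries resolve, while those of SEC24A in both hormone states, SAR1B in DHT and PDIA5 in vehicle held under every alternative run.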

Other observations

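Within a group the 38 genes tended to be high or low together in single libraries. In nonspecific siRNA cells with DHT, replicate 3 had the highest CPM of the group for 35 of the 38 members, against 33.3% of all tested genes. In paxillin siRNA cells with vehicle, replicate 2 had the lowest CPM for 29 of the 38 members, against 28.3% of all tested genes, and in paxillin siRNA cells with DHT replicate 2 had the lowest for 24, against 27.6%. The median coefficient of variation of the members was 6.76% for paxillin siRNA with DHT, 6.7% for paxillin siRNA with vehicle, 8.02% for nonspecific siRNA with DHT and 6.24% for nonspecific siRNA with vehicle. The most variable members were DNAJB9 in both the paxillin siRNA DHT group (17.9%) and the nonspecific siRNA vehicle group (18.8%), HSPA5 in the paxillin siRNA vehicle group (16.2%) and SSR3 in the nonspecific siRNA DHT group (15.2%).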
